A study of Gallus gallus with 9 samples.

Results

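This account concerns the middle of 3 stages of the chick olfactory placode. The 3 arrays of placodes at Hamburger and Hamilton stage 18 (HH18) were set against the average of the HH16 mean and the HH20 mean, to ask which genes were highest or lowest at HH18. All 9 samples of the series entered the comparison, with 3 samples at HH16, 3 at HH18 and 3 at HH20. Of the 38535 probe sets on the Affymetrix chicken array, 24489 chicken probe sets were bright enough to be tested. They stand for 10630 named genes when each gene is represented by its brightest probe set. The samples were dissected olfactory placodes of chick embryos, with no mutation or treatment named in the labels. The labels call the samples of a stage biological replicates, and they give neither the number of embryos in a sample, nor their sex, nor the day of dissection.

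The olfactory placode is a thickening of the head ectoderm that folds into the nasal pit and later forms the sensory and respiratory epithelium of the nose. Neuroblasts leave it as it folds, among them the cells that make gonadotropin-releasing hormone (GnRH). Signals of the FGF, BMP and WNT families pattern the pit, and each is kept in check by inhibitors that the signal itself induces. Hamburger and Hamilton stages are defined by the form of the embryo, so that equal steps in stage number are not equal times.

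The contrast measures a departure from the midpoint between HH16 and HH20. A gene that peaks at HH18 has a positive value, and so has a gene that climbs before HH18 and then stays level. The differences of HH18 from HH16 and of HH18 from HH20 were therefore read beside it, and both of these use the same HH18 arrays. All values are normalized log2(intensity + 16), on which fold changes of dim genes are understated.

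Genes of the nasal ectoderm were bright in part. DLX5, a homeobox factor of the olfactory placode, lay between 10.57 and 10.89 on all 9 arrays, and PAX6, needed for nasal development, lay between 9.0 and 9.43. A dimmer second DLX5 probe set was above background on 0 of 3 HH20 arrays, and SOX2, a factor of placodes and neural progenitors, was dim, at 4.59 to 5.27, and above background on 2 of 3 HH18 arrays. Array totals of the deposited intensity ran from 3693919 to 8380013, and HH18 replicate 2 stood apart on the second principal component of the 9 arrays, at -29.5 against -10.8 to 15.4 for the others. On the third, HH18 replicate 3 was lowest, at -23.2 against -14.3 to 17.4. The probe sets for viruses serve as a measure of background. They were brightest on HH18 replicate 2, with a 99th percentile of 13.9 against 6.17 to 8.70 elsewhere. The median SD of a probe set was 0.151 over the HH16 arrays, 0.166 over the HH18 arrays and 0.125 over the HH20 arrays.

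Few probe sets passed the threshold for a departure from the midpoint at HH18. With limma p-values adjusted across the 24489 tests and called below 0.05, 8 probe sets passed (0.0327%), 5 higher at HH18 (0.0204%) and 3 lower (0.0123%). For comparison, HH20 minus HH16 gave 2673 calls (10.9%), with 1423 higher at HH20 (5.81%) and 1250 lower (5.1%). HH18 minus HH16 gave 1111 calls (4.54%), 566 of them higher at HH18 (2.31%) and 545 lower (2.23%), and HH18 minus HH20 gave 88 (0.359%), with 26 higher at HH18 (0.106%) and 62 lower (0.253%). At an unadjusted p under 0.05 the contrast held 2408 probe sets (9.83%), 1088 higher at HH18 (4.44%) and 1320 lower (5.39%). The 8 calls depended on single arrays: limma called 0 without HH18 replicate 2, 0 without HH20 replicate 2 and 0 without HH20 replicate 3, and 35 without HH18 replicate 3. It called 17 without HH16 replicate 1, 20 without HH16 replicate 3 and 5 without HH20 replicate 1.

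**Figure D1:**
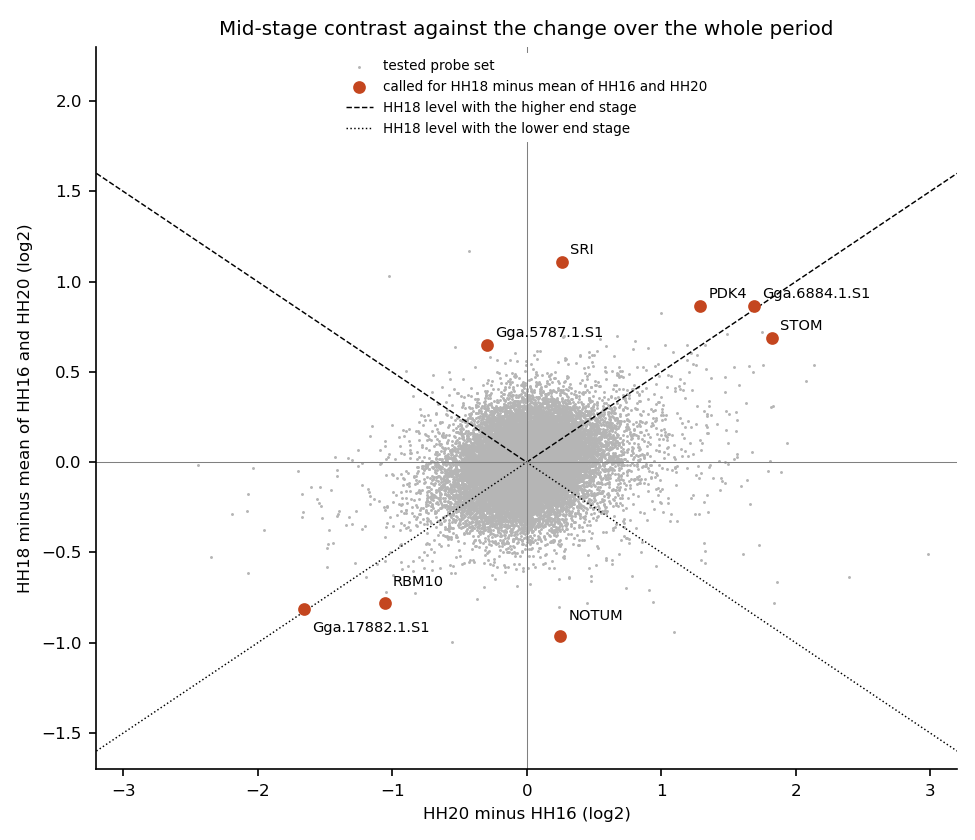
Each of the 24489 tested probe sets is a point, with HH20 minus HH16 (log2) on the x axis and HH18 minus the mean of HH16 and HH20 (log2) on the y axis. The 8 called probe sets are large and labelled by gene or probe set. On the dashed lines HH18 equals the higher of the end stages, on the dotted lines the lower, and SRI, NOTUM and the unnamed probe set left of SRI lie well outside them, while the other 2 unnamed probe sets lie on them.

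The median standard error of the contrast was 0.128. For 99.8% of the probe sets the 95% confidence interval lay within 2-fold either way, and for 92.0% it lay within 1.5-fold. The sizes of the 8 called values ran from 0.65 to 1.11.

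PDK4, a mitochondrial kinase that holds back the oxidation of pyruvate, had the smallest p of all. Its values were 5.71, 5.65 and 5.91 at HH16, 7.20, 7.18 and 7.42 at HH18, and 7.08, 7.20 and 6.87 at HH20. The HH18 arrays lay above every HH16 array and overlapped those of HH20. The contrast was 0.86 ± 0.12, or 1.82-fold (limma, SE, n = 3 per stage, adjusted p = 0.0242), with HH18 minus HH16 at 1.51 (adjusted p = 2.2e-05) and HH18 minus HH20 at 0.22 (adjusted p = 0.69). The call thus rested on the step from HH16, and the difference from HH20 did not pass. With arrays centred on their medians PDK4 had 0.59 (adjusted p = 0.28) and was not called. Centring also moved the median contrast of all named genes to -0.21.

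STOM encodes stomatin, a membrane scaffold protein that binds ion channels. It measured 6.48, 6.66 and 6.49 at HH16, 8.19, 8.12 and 8.12 at HH18, and 8.17, 8.49 and 8.44 at HH20. Every HH18 array was above the HH16 arrays, and the HH18 mean was below that of HH20. The contrast was 0.69 ± 0.10 (adjusted p = 0.0242), made up of 1.60 against HH16 (adjusted p = 3.7e-06) and -0.22 against HH20 (adjusted p = 0.60). Centring the arrays, with the same downward shift of all genes, left 0.40 (adjusted p = 0.40), which is no call. PDK4 and STOM were the 2 of 10630 named genes (0.0188%) called by their brightest probe set.

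Only 3 probe sets (0.0123%) were turning points in the strict sense, called in the contrast and against each neighbouring stage with the same sign. One of the 2 probe sets of NOTUM was lowest at HH18. NOTUM is a secreted enzyme that inactivates WNT proteins by removing their lipid. That probe set read 6.44, 6.47 and 6.30 at HH16, 5.75, 5.88 and 5.05 at HH18, and 6.73, 6.42 and 6.80 at HH20, so that every HH18 array lay below the other 6. The contrast was -0.97 ± 0.16 (adjusted p = 0.0429), with -0.84 against HH16 (adjusted p = 0.016) and -1.09 against HH20 (adjusted p = 0.014).

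The brighter probe set of NOTUM had the same pattern and missed the threshold for the contrast. It read 7.67, 7.31 and 7.47 at HH16, 6.88, 6.95 and 7.16 at HH18, and 7.76, 7.61 and 7.68 at HH20, again with no overlap. The contrast was -0.59 ± 0.11 (adjusted p = 0.077), while its differences from HH16 (-0.49, adjusted p = 0.038) and from HH20 (-0.69, adjusted p = 0.024) both passed. The called NOTUM probe set passed in 2 of the 9 fits that leave out 1 array, with values from -1.14 to -0.72.

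SRI encodes sorcin, a calcium-binding protein. One of its probe sets read 4.61, 5.24 and 5.22 at HH16, 5.88, 6.47 and 6.43 at HH18, and 5.01, 5.6 and 5.24 at HH20. All HH18 arrays lay above the other 6. The contrast was 1.11 ± 0.18, or 2.15-fold (adjusted p = 0.0352), with 1.24 over HH16 (adjusted p = 0.0023) and 0.98 over HH20 (adjusted p = 0.0497). The other 2 SRI probe sets had contrasts of 0.04 and 0.00, so the probe sets of SRI disagreed. Those 2 were brighter, with means over HH16 and HH20 of 8.66 and 10.09 against 5.15 for the called one. The third turning point, a probe set with no gene name in the annotation, read 8.98, 8.75 and 8.97 at HH16, 9.25, 9.30 and 9.65 at HH18, and 8.70, 8.62 and 8.48 at HH20. Its contrast was 0.65 ± 0.10 (adjusted p = 0.0242), and all HH18 arrays were above the others. Centred on array medians, this unnamed probe set had 0.35 (adjusted p = 0.42). SRI (0.97) and the called NOTUM probe set (-1.16) remained called, each with an adjusted p of 0.0041. The downward shift of all genes under centring went with the sign of NOTUM and against that of SRI. With 1 in place of 16 added to the intensity, neither was called. SRI then had 1.63 (limma, adjusted p = 0.088) and that NOTUM probe set -1.30 (adjusted p = 0.081).

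**Figure D2:**
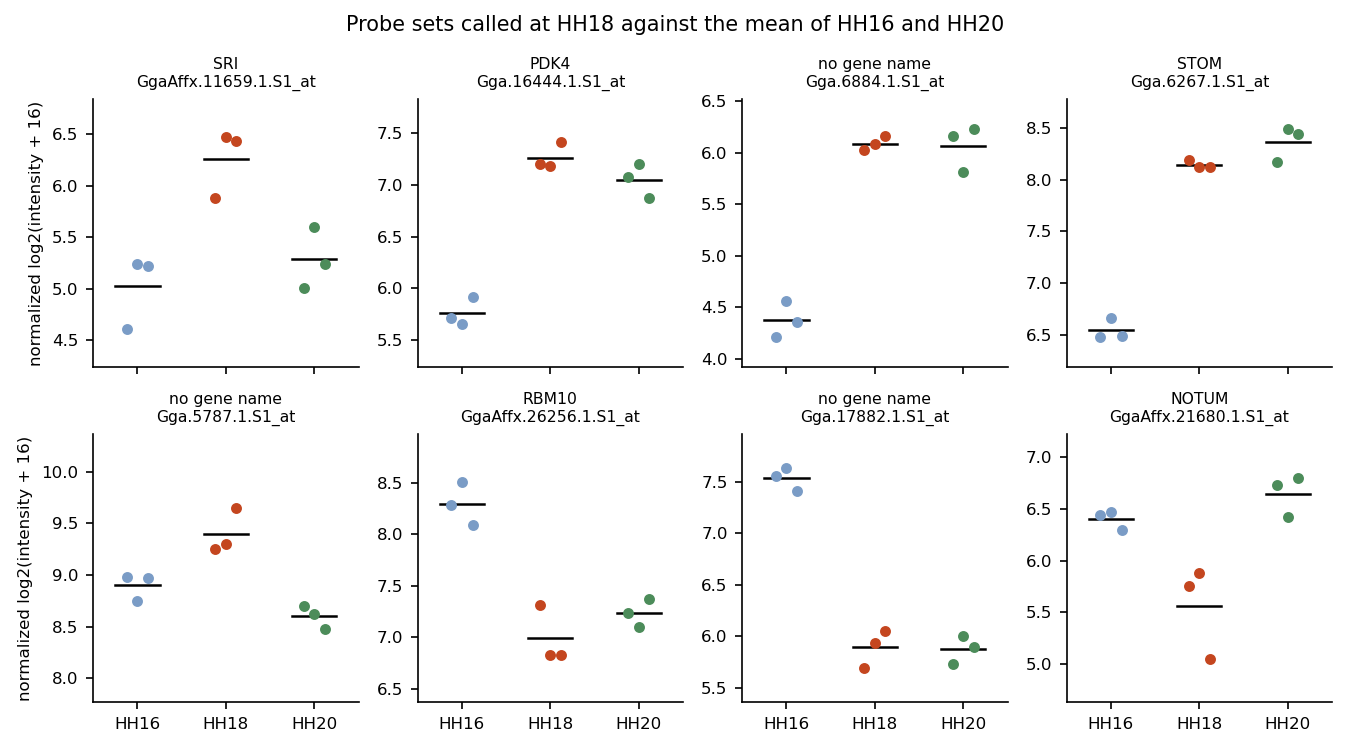
Normalized log2(intensity + 16) of the 8 called probe sets on each array (points) with the stage means (lines), at HH16, HH18 and HH20, each panel spanning the same log2 range. HH18 stands apart from both neighbours for SRI, NOTUM and the unnamed probe set at the lower left, and lies near HH20 for the other 5.

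The other 3 calls had HH18 close to HH20. A probe set of RBM10, a regulator of splicing, read 8.28, 8.51 and 8.09 at HH16, 7.31, 6.83 and 6.83 at HH18, and 7.24, 7.10 and 7.37 at HH20. Its contrast was -0.78 ± 0.13 (adjusted p = 0.0429), whereas the other 4 probe sets of RBM10 had contrasts of -0.25 to -0.12. A second probe set without a gene name averaged 5.89 at HH18 and 6.71 over HH16 and HH20, a contrast of -0.81 ± 0.12 (adjusted p = 0.0242). A further unnamed probe set averaged 6.08 at HH18 and was not above background on any HH16 array. Its fitted contrast was 0.86 (adjusted p = 0.0242), and with HH16 set at the background level it was at least 0.77, a value that was not tested. With centred arrays the fitted value of 0.71 was not called (adjusted p = 0.063).

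Sizes moved less than calls when 1 array was left out. PDK4 ran from 0.79 to 0.91 and was called in 6 of 9 such fits, STOM from 0.63 to 0.72 with 4 calls, SRI from 0.98 to 1.31 with 4 calls and RBM10 from -0.94 to -0.70 with 3 calls. Without HH18 replicate 2, the array apart on the second component, PDK4 had 0.91 (adjusted p = 0.091), STOM 0.70 (adjusted p = 0.16), SRI 1.02 (adjusted p = 0.23), RBM10 -0.70 (adjusted p = 0.24) and the called NOTUM probe set -1.14 (adjusted p = 0.091).

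All 3 HH18 arrays lay above the other 6 for 334 probe sets (1.36%) and below them for 360 (1.47%), and at the level of named genes for 139 (1.31%) and 161 (1.51%). Among named genes, 477 (4.49%) were higher and 596 (5.61%) lower at an unadjusted p under 0.05. These shares are the background against which the lists below are read. The lists and their members were chosen with earlier results of these data known, so an excess over these shares is not an unbiased comparison. Against HH16, 310 named genes were called higher at HH18 (2.92%) and 316 lower (2.97%), and against HH20, 12 were called higher (0.113%) and 38 lower (0.357%).

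Because fewer than 5 named genes of either sign were called, the 10 with the largest statistic of each sign are named here, and apart from PDK4 and STOM none of these passed. On the positive side, ANTXR1, a receptor for collagen, had a contrast of 0.67 ± 0.13 (adjusted p = 0.079). HID1, a Golgi protein needed to form secretory granules, had 0.64 ± 0.13. MXI1, a repressor that competes with MYC for its partner, had 0.35 ± 0.07, and PRR15 had 0.53 ± 0.10. ELAVL2, an RNA-binding protein of neurons, read 6.06, 6.26 and 6.03 at HH16, 7.37, 7.07 and 7.40 at HH18, and 7.47, 7.26 and 7.18 at HH20, a contrast of 0.57 ± 0.12 (adjusted p = 0.101). The other 2 ELAVL2 probe sets had 0.07 and 0.22 and those of MXI1 0.00 and 0.18, none of them called against HH16, while the second HID1 probe set had 0.53 and was. By its brightest probe set, each of these 5 was called against HH16 (adjusted p of 0.00014 to 0.0012) and none against HH20.

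TRAPPC13, a subunit of a complex that tethers transport vesicles, had 6.24, 6.07 and 6.48 at HH16, 6.88, 7.10 and 6.95 at HH18, and 6.53, 6.59 and 6.52 at HH20. Its contrast was 0.57 ± 0.12 (adjusted p = 0.101), and its HH18 arrays lay above all others, as did those of CBWD1 (0.42 ± 0.09). DMRT3, a transcription factor of the DM-domain family, had 0.51 ± 0.11 (adjusted p = 0.101). All 3 were called against HH16 (adjusted p of 0.00061 to 0.0066) and none against HH20 (adjusted p of 0.27 to 0.77). The other probe sets disagreed in size, at 0.19 for CBWD1 and at -0.05 and 0.32 for DMRT3. These 3 genes and ELAVL2 lie on the Z chromosome in the gene table of assembly GRCg7b.

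On the negative side stood 2 uroplakins, membrane proteins of surface epithelia. UPK1B read 9.03, 8.64 and 8.48 at HH16, 7.71, 7.39 and 7.32 at HH18, and 7.81, 7.56 and 7.64 at HH20, a contrast of -0.72 ± 0.13 (adjusted p = 0.058). Its other 2 probe sets had -0.47 and -0.28, and UPK3BL had -0.58 ± 0.12. UPK3BL and the brightest UPK1B probe set were called against HH16 (-1.02 and -1.24) and not against HH20 (-0.13 and -0.19). PPP4R3A, a regulatory subunit of protein phosphatase 4, read 7.17, 7.44 and 7.43 at HH16, 6.74, 6.65 and 6.34 at HH18, and 7.11, 7.09 and 7.13 at HH20. All of its HH18 arrays lay below the others (-0.65 ± 0.12, adjusted p = 0.069). PPP4R3A was called against HH16 (-0.77, adjusted p = 0.0037) and not against HH20 (-0.53, adjusted p = 0.13).

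FAM3C, a secreted cytokine-like protein, had a contrast of -0.66 ± 0.13 (adjusted p = 0.081) and was called against HH20 alone (-0.90, adjusted p = 0.012). Its contrast was -0.39 with the W-linked level as a covariate. S100A10, the partner of annexin A2, had -0.52 ± 0.11, and TRAPPC10, of the same tethering complex family as TRAPPC13, had -0.59 ± 0.12. Both were called against HH16 (-0.92 and -0.91) and neither against HH20 (-0.12 and -0.27, adjusted p = 0.82 and 0.60). The other 4 TRAPPC10 probe sets had -0.26 to 0.11. LOC107049459, on the W chromosome, had -0.64 ± 0.13 (adjusted p = 0.101) and was called against HH20 (-0.80, adjusted p = 0.028). BAMBI, FGF9 and NOTUM complete the 10 and are described with their pathways.

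Several members of the BMP pathway lay below the midpoint at HH18, which is not the same as being lowest there. The list of 34 genes of the pathway had 31 tested members. At an unadjusted p under 0.05, 0 were higher and 8 lower (25.8%, against 5.61% of all named genes). The contrast was negative in 22 of 31, with a median of -0.13 against 0.00 over all named genes. The muscle list was lower by its median (-0.16, with 11 of 15 negative), although relative to all genes it lay at 0.05 with arrays centred on their medians or as deposited. None passed the adjusted threshold. The 8 were the ligands BMP2, BMP4 and BMP7, the response genes ID2, ID4 and MSX1, and the inhibitors BAMBI and SMAD6.

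The 8 genes had different courses. BMP4 read 7.16, 7.26 and 6.95 at HH16, 6.14, 5.93 and 6.66 at HH18, and 6.12, 6.52 and 6.43 at HH20, with a contrast of -0.50 ± 0.15 (adjusted p = 0.28). It was called against HH16 (-0.88, adjusted p = 0.0085), and so was BMP2 (-0.57, adjusted p = 0.029), while neither was called against HH20. BAMBI, a pseudoreceptor that dampens BMP signals, read 7.80, 7.77 and 7.78 at HH16, 7.89, 7.72 and 7.46 at HH18, and 8.85, 8.52 and 8.87 at HH20. HH16 and HH18 overlapped and HH20 stood apart, and the contrast was -0.57 ± 0.11 (adjusted p = 0.079).

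ID2 and ID4 are inhibitors of helix-loop-helix factors that BMP induces. For ID4 HH16 and HH18 overlapped as well, while every HH18 array of ID2 lay above the HH16 arrays and below the HH20 arrays. ID4 was called against HH20 (-0.69, adjusted p = 0.0073) and so were ID2 (-0.51, adjusted p = 0.0036) and BAMBI (-1.06, adjusted p = 0.00091), and none of the 3 was called against HH16. MSX1, a homeobox target of BMP, was the member with every HH18 array below the other 6. It read 7.64, 7.28 and 7.46 at HH16, 7.07, 7.14 and 7.19 at HH18, and 7.69, 7.59 and 7.70 at HH20 (-0.43 ± 0.11, adjusted p = 0.16). MSX1 was called against neither neighbouring stage. The ligand BMP7 had -0.34 ± 0.11, with -0.33 against HH16 and -0.35 against HH20, neither called, and SMAD6, an inhibitory SMAD, had -0.27 ± 0.12.

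In the WNT list, 35 of 43 genes were tested, with 0 higher and 6 lower at an unadjusted p under 0.05 and a median of -0.06. The share lower was 17.1%, against 5.61% of all named genes. The members below all other arrays at HH18 included the 2 feedback inhibitors NOTUM and AXIN2, both of which WNT signals induce. AXIN2 read 8.80, 8.51 and 8.56 at HH16, 8.44, 8.37 and 8.35 at HH18, and 8.67, 8.71 and 9.0 at HH20, a contrast of -0.32 ± 0.10 (unadjusted p = 0.0043, adjusted p = 0.28). LRP6, a WNT co-receptor, was likewise below all others (-0.39 ± 0.14), although 2 of its 3 HH18 arrays were above background. Neither AXIN2 nor LRP6 was called against HH20. The ligands were WNT2B (-0.34 ± 0.11), WNT4 (-0.42 ± 0.14) and WNT5B (-0.34 ± 0.14). WNT2B was called against HH16 (-0.99, adjusted p = 0.00023), and its HH18 mean lay above that of HH20, so it was not lowest at HH18. WNT4 was called against HH20 (-0.79, adjusted p = 0.041).

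In the FGF list, 26 of 30 genes were tested, with 0 higher and 4 lower, all of them ligands, and a median of 0.03. The share lower was 15.4%, against 5.61% of all named genes. FGF9 read 7.34, 7.16 and 7.19 at HH16, 6.32, 6.68 and 6.54 at HH18, and 6.81, 6.94 and 6.99 at HH20. Every HH18 array was below the other 6 (-0.56 ± 0.11, adjusted p = 0.098). FGF9 was called against HH16 (-0.72, adjusted p = 0.0051) and not against HH20 (-0.40, adjusted p = 0.30). FGF8, which in mouse is required for GnRH neurons, read 7.42, 7.38 and 6.67 at HH16, 7.03, 6.64 and 6.86 at HH18, and 7.52, 7.71 and 7.78 at HH20. HH16 replicate 3 lay within the range of HH18, and the contrast was -0.57 ± 0.15 (adjusted p = 0.21), with HH18 minus HH20 at -0.83 (adjusted p = 0.0499). With the W-linked level as a covariate the FGF8 contrast was -0.31. FGF3 (-0.51 ± 0.14) and FGF18 (-0.29 ± 0.13) were called against HH20 and not against HH16.

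The immediate early and stress list leaned the other way. Of 36 genes 19 were tested, with 6 higher and 2 lower at an unadjusted p under 0.05 and a median of 0.14. The shares higher and lower were 31.6% and 10.5%, against 4.49% and 5.61% of all named genes. Besides PDK4, which is on this list and is no immediate early gene, the 6 held EGR1, JUN, DUSP1, KLF6 and GADD45G. EGR1, a zinc finger factor that growth factor signals induce within minutes, read 6.04, 6.24 and 6.19 at HH16, 6.79, 7.31 and 6.85 at HH18, and 6.72, 6.48 and 6.07 at HH20. JUN, a subunit of the AP-1 factor, read 8.79, 9.25 and 9.14 at HH16, 9.75, 9.75 and 9.35 at HH18, and 9.22, 9.19 and 9.26 at HH20.

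The HH18 arrays of EGR1 (0.70 ± 0.15, adjusted p = 0.11) and JUN (0.48 ± 0.11, adjusted p = 0.12) lay above the other 6. Those of DUSP1, a phosphatase that ends MAP kinase signals, did too (0.47 ± 0.12, adjusted p = 0.18). All 3 were called against HH16, with adjusted p of 0.011, 0.015 and 0.026, and none against HH20. The 2 lower members were CCN2, a matricellular protein (-0.33 ± 0.12), and ARC, a neuronal activity gene (-0.26 ± 0.12) that was not above background on any HH18 array.

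**Figure D3:**
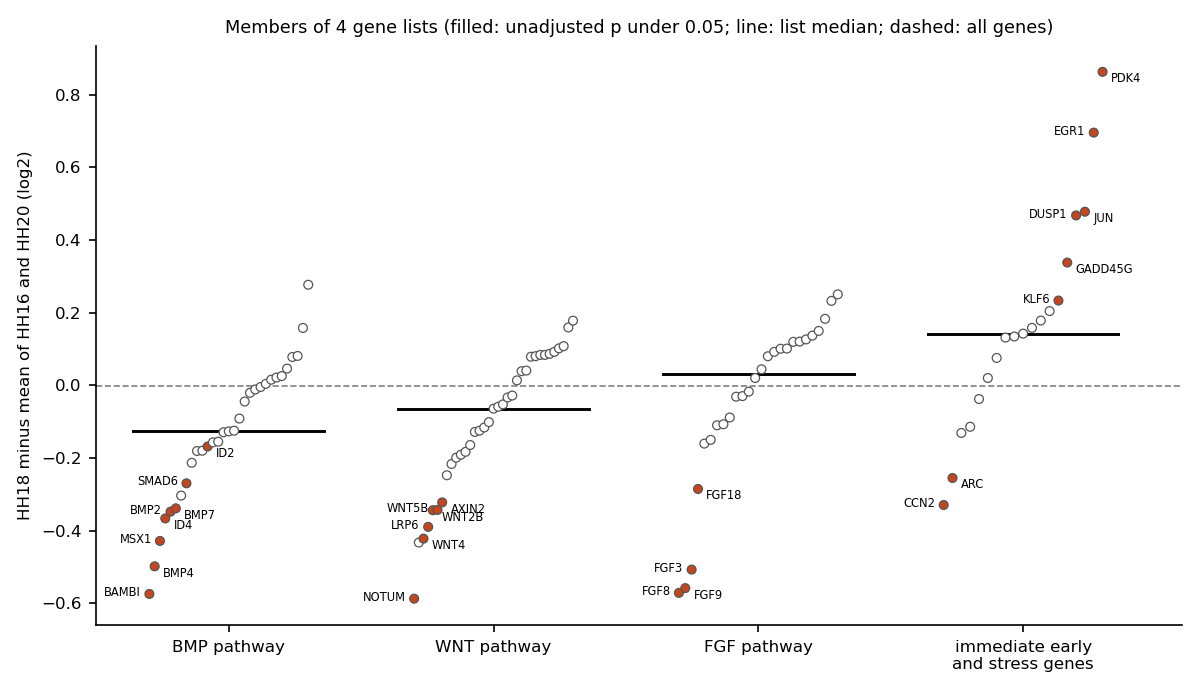
Each point is 1 tested gene of the BMP, WNT, FGF or immediate early and stress list, with HH18 minus the mean of HH16 and HH20 (log2) on the y axis. Filled points have an unadjusted p under 0.05 and are named. The list medians (lines) are -0.13, -0.06, 0.03 and 0.14, and the dashed line is the median of all named genes.

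These list values depended on how the arrays were scaled. Centring arrays on their medians moved the median contrast of all named genes to -0.21, and the values as deposited moved it to -0.29. Relative to all genes, the BMP list lay at -0.13 under quantile normalization, -0.08 when centred or as deposited, and -0.09 with trimmed-mean scaling, and in the same order 8, 12, 7 and 7 of its members were lower at an unadjusted p under 0.05. Over all probe sets the share lower was 5.39%, 12.2%, 5.01% and 4.67% in that order, and the share higher 4.44%, 1.24%, 0.241% and 4.61%. The immediate early list lay at 0.14, 0.10, 0.10 and 0.15 in the same order, with 6, 2, 0 and 7 members higher at an unadjusted p under 0.05. Its own median was -0.11 when centred and -0.19 as deposited.

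GNRH1 was not called in the contrast. It read 8.63, 8.89 and 8.87 at HH16, 8.64, 8.35 and 8.89 at HH18, and 8.30, 8.73 and 8.86 at HH20, and all stages overlapped. The contrast was -0.08 ± 0.13, with a 95% interval of -0.35 to 0.19 (adjusted p = 0.88). It ran from -0.21 to 0.06 with 1 array left out, and was 0.06 without HH18 replicate 2. With arrays centred on their medians it was -0.39 (limma, adjusted p = 0.39), beside a median of -0.21 over all named genes. Of 17 tested genes of the GnRH neuron and Kallmann list, 0 were higher and 4 lower at an unadjusted p under 0.05. The share lower was 23.5%, against 5.61% of all named genes. The 4 were FGF8, the guidance cue SEMA3A (-0.27 ± 0.11), NSMF, a gene of GnRH neuron migration in mouse (-0.25 ± 0.12), and the chemokine CXCL12 (-0.35 ± 0.08), which guides migrating GnRH neurons in mouse. CXCL12 was called against HH16 (-0.71, adjusted p = 0.00041).

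Among the genes of neurogenesis named by rule, NEUROG1, NEUROD1 and DLL1 had contrasts near 0 by their brightest probe sets. NEUROG1, a proneural factor, read 4.88, 5.12 and 5.0 at HH16, 5.51, 5.64 and 5.43 at HH18, and 6.24, 6.23 and 5.84 at HH20. No 2 stages overlapped, and the contrast was -0.02 ± 0.13 (95% interval -0.30 to 0.25). NEUROD1, which acts after it, had 0.09 ± 0.13, and the Notch ligand DLL1 had 0.02 ± 0.11. A dimmer DLL1 probe set had -0.16 ± 0.12 and was called against HH16 (-0.53, adjusted p = 0.041).

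HES5, a target of Notch, differed from these in its course. It read 8.43, 8.56 and 8.31 at HH16, 8.23, 8.49 and 8.47 at HH18, and 7.82, 7.76 and 7.94 at HH20, so that only HH20 stood apart. Its contrast was 0.26 ± 0.10 (adjusted p = 0.40) and HH18 minus HH20 was 0.56 (adjusted p = 0.042). A dimmer HES5 probe set had 0.21 ± 0.11, and its HH18 minus HH20 of 0.59 did not pass (adjusted p = 0.055). Of the placodal factors, SOX2 had -0.13 ± 0.14, EYA2 0.20 ± 0.10, DLX5 -0.05 ± 0.07 and PAX6 0.01 ± 0.08, all with adjusted p of 0.55 or more. The dimmer DLX5 probe set had 0.27 ± 0.16 (adjusted p = 0.62).

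Other lists of placode and neuron genes were counted at an unadjusted p under 0.05 as higher and lower at HH18, where 10.1% of all named genes lay on either side. The counts were 3 and 4 of 23 placodal transcription factors (30.4% on either side), 3 and 3 of 23 Notch and proneural genes (26.1%), and 1 and 4 of 34 neuronal differentiation genes. The olfactory receptor neuron lineage had 0 and 1 of 15, axon guidance and adhesion 4 and 3 of 39, retinoic acid 1 and 0 of 14, neuropeptides and secretory granules 0 and 3 of 20, and ion channels and synapse 5 and 4 of 40 (22.5%). None of their members was called in the contrast. The zinc finger factor GATA3 (-0.67 ± 0.15) and the LIM factor ISL1 (-0.63 ± 0.16) had the largest negative values of these. Both were called against HH20 (adjusted p = 0.00058 and 0.019) and not against HH16. ISL1 lies on the Z chromosome and had the lowest contrast of its 488 tested genes.

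Among lists of general cell functions, the proteasome had 15.4% of its members lower, against 5.61% of all named genes, and hypoxia and glycolysis had 19.2% on either side, against 10.1%. The counts were 3 and 3 of 42 for cell cycle and mitosis, 0 and 2 of 30 for heat shock and chaperone genes, 0 and 4 of 26 for the proteasome, and 3 and 2 of 26 for hypoxia and glycolysis. They were 2 and 1 of 47 for the respiratory chain, 1 and 1 of 58 for cytosolic ribosomal proteins, 4 and 0 of 50 for splicing factors and RNA-binding proteins, 0 and 3 of 53 for chromatin regulators, and 1 and 2 of 26 for apoptosis. These counts also depended on scaling and on single arrays. Lower proteasome members numbered 1 with trimmed-mean scaling, 0 without HH18 replicate 3, and 9 with arrays centred on their medians. Centring also made 12.2% of all probe sets lower. The splicing list then had 0 higher and 6 lower. MYC, a growth-promoting factor of the cell cycle list, read 7.23, 7.12 and 7.23 at HH16, 6.66, 6.88 and 6.5 at HH18, and 7.04, 7.19 and 7.05 at HH20. Its HH18 arrays lay below all others (-0.46 ± 0.11, adjusted p = 0.16), and MYC was not called against HH20.

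Markers of tissues next to the placode were off the midpoint in 26.7% of the muscle list, 25% of surface and nasal epithelium, 23.1% of eye and forebrain and 21.4% of lens, against 10.1% of all named genes. Counts of higher and lower members were 2 and 4 of 24 for surface and nasal epithelium, 0 and 2 of 14 for neural crest and glia, 2 and 1 of 26 for mesenchyme and matrix, and 1 and 0 of 19 for blood vessel. They were 1 and 0 of 9 for erythrocyte, 1 and 0 of 15 for macrophage and leukocyte, 2 and 1 of 14 for lens, 2 and 1 of 13 for eye and forebrain, and 1 and 3 of 15 for muscle. Summed normalized intensities of the mesenchyme list were 10692 to 12217 at HH18, against 9713 to 10754 at HH16 and 11952 to 12682 at HH20. HH18 replicate 3 had less signal than the other HH18 arrays for the blood vessel list (570.0 against 899 and 955), the erythrocyte list (3234 against 5167 and 5940) and the macrophage list (305 against 497 and 439). Muscle markers summed to 858 to 1076 at HH18, against 1350 to 1422 at HH16 and 746 to 858 at HH20. Lens markers summed to 868 to 972, against 615 to 701 and 909 to 965, and neural crest and glia markers to 2745 to 3165, against 3248 to 3762 and 2692 to 3030 in the same stages. Surface and nasal epithelium (12892 to 13590 at HH18, 13327 to 13549 at HH16, 13778 to 14111 at HH20) and eye and forebrain (1367 to 1378 at HH18, 1231 to 1424 at HH16, 1280 to 1302 at HH20) differed less. In dissected tissue fewer cells of a type and less RNA per cell cannot be told apart, and the part of these markers in the contrast was not tested.

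With quantile normalization, genes that changed over the whole period were mostly past the midpoint by HH18, which for genes higher at HH20 did not hold with arrays centred on their medians or as deposited. HH20 minus HH16 uses none of the HH18 means, and with equal variance in all stages its estimate is uncorrelated with that of the contrast. Both tests use the same variance estimate of a probe set, so their p-values are not independent. Of the 1423 probe sets higher at HH20 than at HH16, HH18 lay between the end stages for 88.5%, and at the median it had covered 64.8% of the difference. The 3 HH18 arrays gave medians of 60.8%, 66.7% and 68.5%. Of these probe sets 70.3% were past the midpoint, and 252 had a positive contrast at an unadjusted p under 0.05 against 56 with a negative one.

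Of the 1250 lower at HH20, 76.2% were past the midpoint. HH18 lay between for 87.0%, and at the median it had covered 68.3% (61.8%, 74.7% and 66.9% on the 3 arrays). Here 245 had a negative contrast at an unadjusted p under 0.05 and 24 a positive one. The medians for probe sets higher and lower at HH20 were 41.5% and 84.9% with arrays centred on their medians, and 38.3% and 83.9% as deposited. With the level of W-linked genes as a covariate they were 52.6% and 56.0%.

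**Figure D4:**
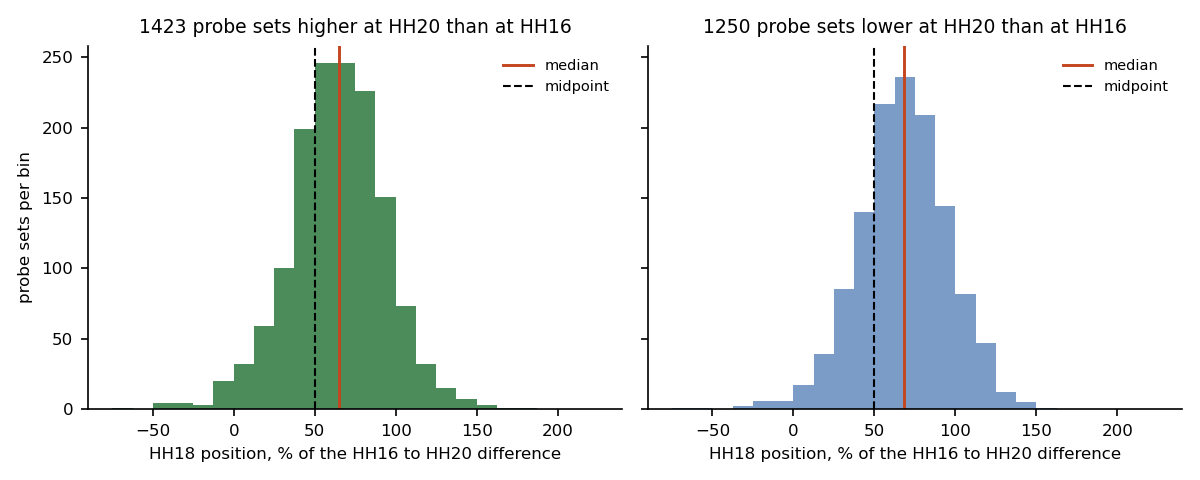
Histograms of where HH18 lay between HH16 (0%) and HH20 (100%) for the 1423 probe sets higher at HH20 (left) and the 1250 lower at HH20 (right), in probe sets per bin. The medians (solid lines, 64.8% and 68.3%) are to the right of the midpoint (dashed) in both panels, and values beyond the axis are drawn in the outermost bins.

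The sex chromosomes were counted apart from the autosomes. In birds females carry 1 Z and 1 W chromosome and males 2 Z chromosomes, and the labels do not give the sex of the embryos. Of 488 tested Z-linked genes, 69 were higher and 15 lower at HH18 at an unadjusted p under 0.05, with a median contrast of 0.07. Of 15 W-linked genes 14 were negative, 0 were higher and 4 lower, with a median of -0.18. The other 10125 genes had a median of 0.00, with 408 higher and 576 lower.

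The W-linked genes varied most among the HH16 arrays. Their median deviation from the mean over the 9 arrays was 0.32, -0.07 and -0.39 at HH16, -0.18, -0.25 and -0.08 at HH18, and 0.20, 0.28 and 0.11 at HH20. All HH18 arrays lay below all HH20 arrays and within the range of HH16. Z-linked genes ran the other way, at -0.08, -0.02 and 0.04 at HH16, 0.06, 0.05 and 0.04 at HH18, and 0.01, -0.05 and -0.02 at HH20.

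**Figure D5:**
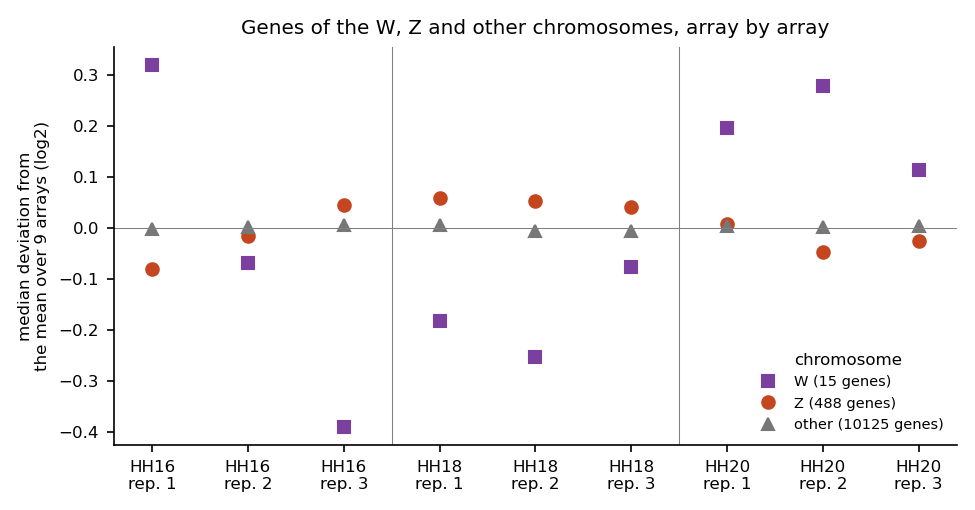
Median deviation of W-linked (squares, 15 genes), Z-linked (circles, 488 genes) and other genes (triangles, 10125 genes) from their mean over the 9 arrays (log2), for each array of HH16, HH18 and HH20. W-linked genes lie below 0 on all 3 HH18 arrays and above 0 on all 3 HH20 arrays, and spread from -0.39 to 0.32 at HH16.

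With the W-linked level as a covariate in the limma fit, an alternative added after seeing the data, 7 probe sets were called, and none of them was among the 8. PDK4 then had 0.85 (adjusted p = 0.061), STOM 0.68 (adjusted p = 0.10) and the called NOTUM probe set -1.03 (adjusted p = 0.14). Genes of the sex chromosomes and of autosomes both moved, with -0.37 in place of -0.64 for LOC107049459 and 0.39 in place of 0.51 for DMRT3, but also -0.31 in place of -0.57 for FGF8 and -0.39 in place of -0.66 for FAM3C. Without the genes of Z and W, the 8 calls were the same probe sets. The part of the embryos' sex in these values was not tested.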

How the data were processed

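Total RNA of 9 olfactory placode samples was extracted with Trizol, amplified and biotin-labelled, and hybridised to 1 Affymetrix array each, per the labels' protocols. The deposited values are linear intensity, 1 per probe set and array, made by the authors with MAS5, per the submitters' processing notes. Version and scaling are not given in the sources used here, and array totals differed, so the values were normalized again.

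Values were taken as log2(intensity + 16) and quantile normalized over the 9 arrays. Chicken probe sets above the 40th percentile of an array on at least 3 arrays were tested. A model with 1 mean per stage was fitted with limma 3.58.1 in R 4.3.3 (lmFit, eBayes with an intensity trend, 6 residual and 11.1 prior degrees of freedom), with two-sided tests, p-values adjusted by Benjamini-Hochberg across the 24489 probe sets, and 0.05 as the threshold. As pooling and days are not stated, p-values reflect only the spread between these samples, which may be technical. The number of arrays limits the precision. The fit was also run on data simulated from its own means and variances with independent errors. Such data cannot show effects of scaling or of single arrays.

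Of the chicken probe sets, 27166 have 1 gene symbol in the platform annotation, 177 several and 10350 none. Only those with 1 symbol were named, and a gene's brightest probe set represented it. Chromosomes of 10628 of 10630 genes came from the RefSeq table of GRCg7b. Background was the 99th percentile of an array's virus probe sets.

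The text names called genes, the 10 largest statistics of a sign with fewer than 5 called genes, members of 31 gene lists at an unadjusted p under 0.05, and a set of genes of the placode and of GnRH neurons, of which some are not reported here. The members and lists were chosen with earlier results of these data known. The labels do not say whether replicate numbers pair the samples. Deviations of samples sharing a number correlated at -0.13 to 0.06, and those of samples with unlike numbers at -0.18 to 0.14. Whether a number stands for a shared batch was not tested. Alternatives covered scaling, pseudocount, filter, variance model, array weights, a replicate block and each array left out.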

Additional observations from a re-analysis of the deposited data

How the results depend on the processing

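The counts of calls depended on the processing. In the order higher and lower at HH18, the main counts of 5 and 3 became 1 and 8 with arrays centred on their medians and 7 and 8 with trimmed-mean scaling. They became 0 and 0 as deposited, without a filter and without the intensity trend, where limma still had 59 and 1228, 1704 and 1567, and 1044 and 1320 at an unadjusted p under 0.05. The lower calls numbered 1 with a 60th percentile filter, 5 without probe sets for several transcripts and 6 with the robust fit, and array weights gave 2 higher and 1 lower. Leaving out 1 array gave 0 to 16 higher and 0 to 19 lower. Without HH18 replicate 2, limma's 0 calls stood beside 824 and 899 probe sets at an unadjusted p under 0.05. The HH18 minus HH16 count of 1111 became 596 when centred, 44 as deposited, 641 without a filter and 646 without the trend, and 404 to 997 with 1 array left out. The HH18 minus HH20 count of 88 became 10 as deposited, 32 without a filter, 43 without the trend, 142 with array weights and 37 with the W-linked covariate, and 23 to 128 with 1 array left out. The median position at HH18 for probe sets higher and lower at HH20 was 41.5% and 84.9% centred, 38.3% and 83.9% as deposited, and 52.6% and 56.0% with the W-linked covariate. The fit with the replicate block called 9 probe sets, 6 of them among the 8, but the labels do not say whether the numbers pair the samples. Signs were compared only for the called probe sets and the genes named by rule. Among these, contrasts that changed sign were small ones in the main fit. Centred, they became PAX6 -0.28, EYA2 -0.089, HES5 -0.060 and DLL1 -0.29. As deposited, they became PAX6 -0.36, EYA2 -0.17, HES5 -0.14, DLL1 -0.37 and NEUROD1 -0.057. Trimmed-mean scaling gave DLX5 0.014 and DLL1 -0.019, pseudocount 1 gave NEUROG1 0.045, array weights gave PAX6 -0.00316 and DLL1 -0.00742, and the W-linked covariate gave PAX6 -0.024. With 1 array left out, PAX6 ran from -0.049 to 0.076, DLL1 from -0.10 to 0.081, NEUROG1 from -0.090 to 0.027 and GNRH1 from -0.21 to 0.056. The cause of these differences was not tested. The W-linked covariate and the fit without Z and W genes were chosen after seeing the data. Depth limits dim genes: 46.9% to 59.6% of an array's probe sets were above background.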

Other observations

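SST1, of the neuropeptide list, did not pass the contrast (-0.51 ± 0.20, adjusted p = 0.44). HH18 was higher than HH16 by 0.99 (adjusted p = 0.024) and lower than HH20 on the log2 scale (HH18 minus HH20 of -2.0, adjusted p = 0.00072). KRT14, a keratin of basal epithelial cells, had -0.56 ± 0.15 and differed from HH20 (-1.22, adjusted p = 0.0031) and not from HH16 at the threshold. PKP2, a desmosomal protein, had 0.34 ± 0.11 and differed from HH16 (1.02, adjusted p = 0.00025). PROX1, a homeobox factor of lens and neurons, had 0.44 ± 0.10, with HH18 above HH16 by 1.02 (adjusted p = 0.00011), and RBM24, an RNA-binding protein of lens and muscle, had 0.47 ± 0.11, with HH18 above HH16 by 1.15 (adjusted p = 7.1e-05).

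Tested genes near DMRT3 on the Z chromosome had positive contrasts as well, beside a median of 0.07 over all tested Z-linked genes. Of these, DOCK8 and DMRT1 were singled out after their values were seen. CBWD1 had 0.42, DMRT1, a gene of testis formation, 0.42 (adjusted p = 0.16) and DOCK8, a regulator of small GTPases, 0.36. Each was called against HH16 and none against HH20, with HH18 minus HH20 at 0.21, 0.15 and -0.23 in that order. DMRT1 read 7.36, 7.79 and 7.59 at HH16, 8.23, 8.25 and 8.33 at HH18, and 8.19, 8.02 and 8.13 at HH20. KANK1, in the same stretch, had 0.07, and SMARCA2, VLDLR and PUM3 had 0.01, 0.06 and 0.03.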
